A study of Rattus norvegicus with 6 samples.

Results

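The genes described here are 10 genes of endothelial cells and of the blood-nerve barrier in rat dorsal root ganglia (DRG): Pecam1, Cdh5, Kdr, Flt1, Tek, Cldn5, Vwf, Plvap, Vegfa and Tjp1. They were chosen by symbol, from what the genes are known to do. Of the 10, 9 had a row of that symbol among the 43350 rows of the table, and 8 of these had reads and entered the test, which covered 26663 rows in all. The libraries came from male Sprague-Dawley rats, 6 to 8 weeks old on arrival, in a CCI group of 3 and a Sham group of 3. In chronic constriction injury (CCI) the left sciatic nerve is loosely ligated, and in Sham rats it was exposed without ligation. The L4-6 DRG of the operated side were taken on day 11, from 1 rat per sample according to the methods, after perfusion with saline, and rats entered a group on showing the behaviour expected of it. The labels call each RNA a pooled sample and give Sham rats no treatment. RNA was depleted of ribosomal RNA before sequencing.

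DRG hold the cell bodies of sensory neurons, wrapped by satellite glia and reached by a dense capillary bed. Along the nerve trunk, capillaries sealed by tight junctions and the perineurium form the blood-nerve barrier, whereas capillaries of the ganglion itself are more permeable and some of them are fenestrated. VEGF-A made by surrounding cells acts on the receptors VEGFR2 (Kdr) and VEGFR1 (Flt1), angiopoietins act on Tie2 (Tek), and the junctions between endothelial cells are held by VE-cadherin, PECAM-1 and claudin-5.

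Total counts per library ranged from 75423546 to 87615743. All 15 neuronal markers were tested, and their summed level was 14596 to 16402 CPM in CCI libraries and 17846 to 18456 CPM in Sham libraries. Sham 1 stood apart in skeletal muscle markers, at 719 CPM in sum against 217 to 231 CPM in the other 5 libraries. All 11 tested muscle genes were highest in Sham 1, as were 15.4% of all tested rows. By the limits of the study, which are given with the tests, 7 of the 11 were lower in CCI, as were 1.26% of all tested rows. The groups did not overlap for 2 of the 11, and for 8.7% of all tested rows as lower in CCI. Erythrocyte markers summed to 438 CPM in Sham 1 and to 129 to 258 CPM elsewhere. Fibroblast markers summed to 1649 CPM in CCI 1 and to 2481 to 2803 CPM elsewhere. CPM, counts scaled to a common library total, compare libraries but not genes, since they make no allowance for length.

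The methods of the study name edgeR without saying which of its tests was run, and its quasi-likelihood test was used here. None of the 8 tested genes passed the limits used by the study (a log2 fold change beyond 0.58 in either direction together with an unadjusted p below 0.05) in either direction, where 3.83% of all tested rows did so. None had a Benjamini-Hochberg adjusted p under 0.05 in edgeR, a criterion met by 0.0938% of rows. Plvap came nearest, with all 3 CCI libraries below all 3 Sham libraries. It was the only one of the 8 at an unadjusted p under 0.05 irrespective of fold, which 10.7% of rows reached and 5.18% reached as lower in CCI. With DESeq2 in place of edgeR, Plvap was also the only one with an adjusted p under 0.05, a level that 2.81% of rows reached there. The 8 log2 fold changes ran from -0.52 for Plvap to 0.08 for Tjp1, with a median of -0.14 against 0.01 over all tested rows. In bulk ganglia, fewer endothelial cells and less RNA per endothelial cell cannot be told apart.

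**Figure D1:**
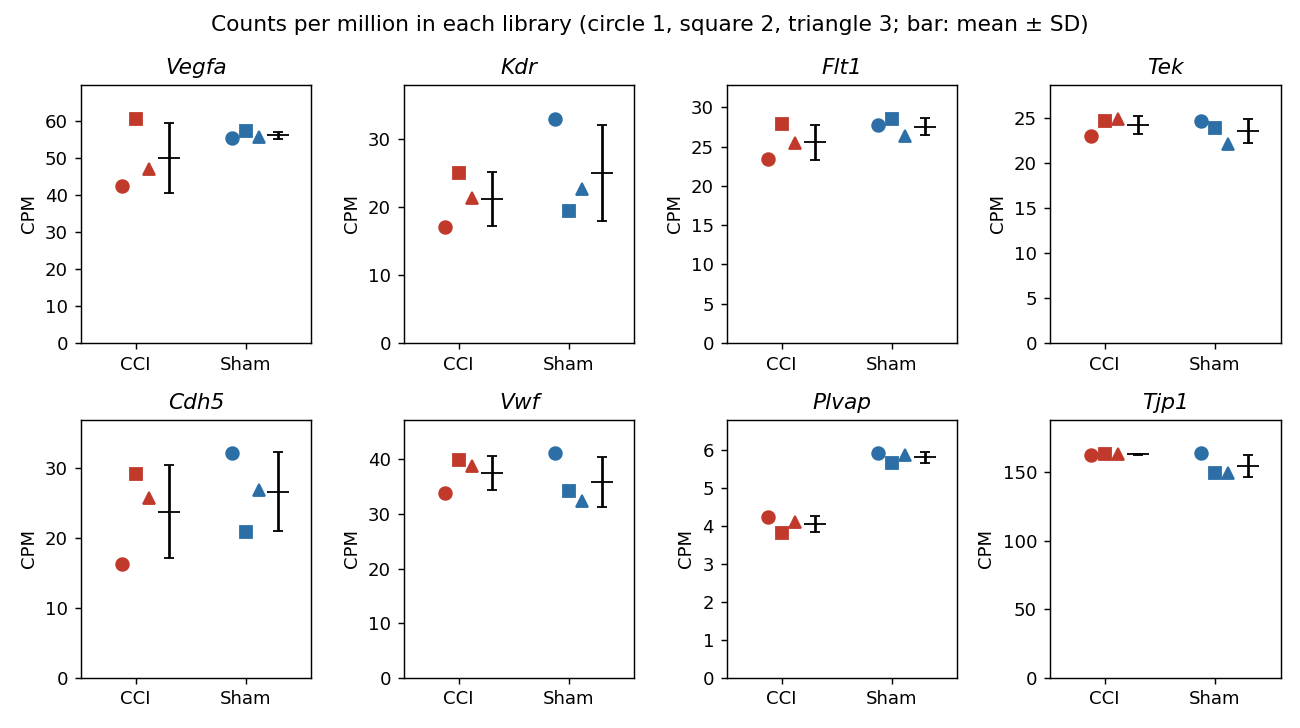
Level in CPM (vertical axis, from 0) of the 8 tested genes in each of the 3 CCI and 3 Sham libraries, with the mean and SD beside the points of each group. The groups are separate for Plvap, at 3.81 to 4.24 against 5.64 to 5.90 CPM, and overlap for each of the other 7 genes.

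Vegfa encodes VEGF-A, the main growth and permeability factor of endothelium, and its row lay at chr9:17340341-17355681 of the rat genome that the methods call V101. Its level was 42.3, 60.6 and 47.1 CPM in CCI 1, 2 and 3 and 55.4, 57.2 and 55.6 CPM in Sham 1, 2 and 3. CCI 1 and CCI 3 lay below every Sham library and CCI 2 above every one, so the groups overlapped. The log2 fold change of CCI over Sham was -0.16 (SE 0.13, 95% interval -0.48 to 0.15, adjusted p = 0.740 by edgeR). The value for Vegfa depended on single CCI libraries. Without CCI 2 its log2 fold change was -0.32 (unadjusted p = 0.00620 and adjusted p = 0.319 by edgeR), and without CCI 1 it was -0.06 (unadjusted p = 0.634 by edgeR).

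The groups overlapped for both VEGF receptors. Kdr (chr14:34727623-34787183), which encodes the principal signalling receptor for VEGF-A, was at 17.1, 24.97 and 21.2 CPM in CCI 1, 2 and 3. In Sham 1, 2 and 3 it was at 33.0, 19.3 and 22.7 CPM. The highest library was Sham 1 and the lowest CCI 1, while the other 4 were interleaved. The log2 fold change was -0.24 (SE 0.23, 95% interval -0.79 to 0.30, adjusted p = 0.783 by edgeR), and without Sham 1 it was 0.01. Flt1 (chr12:9034308-9205905), a receptor that binds VEGF-A tightly and signals weakly, was at 23.4, 27.8 and 25.5 CPM in the CCI libraries and at 27.7, 28.6 and 26.4 CPM in the Sham libraries. These values lay closer together than those of Kdr. For Flt1 the log2 fold change was -0.11 (SE 0.08, 95% interval -0.31 to 0.10, adjusted p = 0.735 by edgeR). A second row of the same symbol, an assembled stretch inside the gene, held 371 to 397 reads in CCI libraries and 416 to 470 in Sham libraries and was not added to it.

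Tek encodes Tie2, the angiopoietin receptor that keeps vessels quiescent. Its row (chr5:113725717-113852799) was at 23.0, 24.7 and 24.9 CPM in CCI 1, 2 and 3 and at 24.6, 23.9 and 22.1 CPM in Sham 1, 2 and 3. All 6 values lay between 22.1 and 24.9 CPM and the groups overlapped. CCI over Sham gave a log2 fold change of 0.04 (SE 0.07, adjusted p = 0.908 by edgeR), and the 95% interval of -0.14 to 0.22 excludes changes of the size of the 0.58 limit.

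Cdh5 encodes VE-cadherin, the adhesion molecule of endothelial adherens junctions, and had the largest standard error of the 8 fold changes. Its row (chr19:1023683-1074365) was at 16.3, 29.1 and 25.7 CPM in CCI 1, 2 and 3 and at 32.0, 20.8 and 26.8 CPM in Sham 1, 2 and 3. CCI 1 was the lowest library and Sham 1 the highest, and the ranges of the groups overlapped widely. The log2 fold change was -0.16 (SE 0.25, adjusted p = 0.881 by edgeR), with a 95% interval of -0.75 to 0.43 that does not exclude a change of the size of the limit. Without CCI 1 it was 0.05. No row carried the symbol Pecam1, which encodes the endothelial adhesion molecule CD31, and that gene was not analysed here.

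Vwf encodes von Willebrand factor, the clotting protein stored by endothelial cells. Its row (chr4:158088505-158219523) was at 33.9, 39.9 and 38.7 CPM in CCI 1, 2 and 3 and at 41.1, 34.3 and 32.3 CPM in Sham 1, 2 and 3. The groups overlapped, with Sham 1 the highest library and Sham 3 the lowest. Its log2 fold change was 0.06 (SE 0.11, 95% interval -0.21 to 0.34, adjusted p = 0.901 by edgeR).

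At the tight junction, Tjp1 encodes ZO-1, the scaffold that links claudins to actin and is also made by many other cells of the ganglion. It was at 163, 163 and 164 CPM in CCI 1, 2 and 3 and at 164, 150 and 150 CPM in Sham 1, 2 and 3. Sham 1 matched the CCI libraries and the other 2 Sham libraries were lower. Its log2 fold change was 0.08 (SE 0.05, 95% interval -0.05 to 0.21, adjusted p = 0.691 by edgeR). Without Sham 1 it was 0.12 (unadjusted p = 0.0495 and adjusted p = 0.497 by edgeR). The row (chr1:126146489-126403406) also carried a lincRNA, so its reads cannot be given to Tjp1 alone.

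Cldn5 encodes claudin-5, the sealing protein of endothelial tight junctions. Its row (chr11:86356294-86357718, minus strand) held 0 reads in all 6 libraries, where 3 counts would be 0.0342 to 0.0398 CPM of the unscaled library totals. The interval lies wholly inside the row of Cdc45 (chr11:86329012-86358453, plus strand), a DNA replication gene, which held 654, 915 and 937 reads in CCI 1, 2 and 3 and 949, 769 and 828 in Sham 1, 2 and 3. How reads in the shared interval were divided, and whether strand was used, is not given in the sources used here. The 0 is therefore not a measurement of Cldn5 in the tissue and sets no upper limit on its level.

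Plvap encodes the protein of the diaphragms that span fenestrae and caveolae, and marks permeable capillaries that lack a tight barrier. Its row (chr16:19906318-19918689) held 344, 307 and 311 reads in CCI 1, 2 and 3 and 518, 447 and 483 reads in Sham 1, 2 and 3. As levels these were 4.24, 3.81 and 4.09 CPM against 5.90, 5.64 and 5.85 CPM. Every CCI library lay below every Sham library, and the gap between the groups was larger than the range within either. Such a lack of overlap, lower in CCI, was found in 8.7% of all tested rows. The log2 fold change was -0.52 (SE 0.12, 95% interval -0.81 to -0.23), a change of -30.2% with an interval of -43.0% to -14.5%, and the edgeR quasi-likelihood test gave an unadjusted p of 0.00447 and an adjusted p of 0.222. With DESeq2 the adjusted p was 0.0298 at the same log2 fold change of -0.52, and over all alternatives tried it ranged from 0.0298 to 0.483. The direction of Plvap was the same in all 15 alternatives, and without Sham 1 the log2 fold change was -0.51. Macrophage markers also differed between the groups, at 127 to 182 CPM in sum in CCI libraries against 93.5 to 121 CPM in Sham libraries, and their part in the level of Plvap was not tested.

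**Figure D2:**
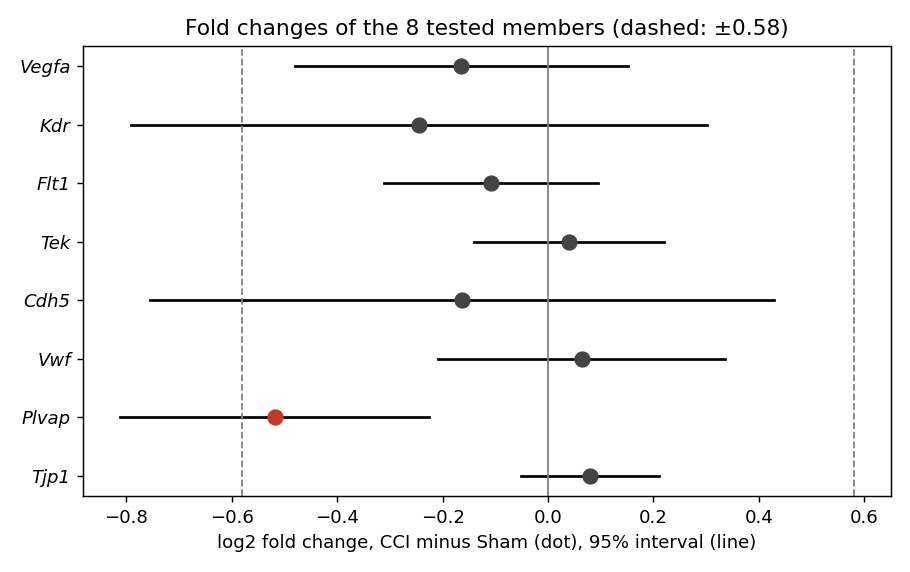
Log2 fold change of CCI over Sham (horizontal axis, 0 for no change) of the 8 tested genes, with the 95% interval of the edgeR fit as a line and the 0.58 limit dashed. The interval of Plvap, drawn in red, runs from -0.81 to -0.23 and excludes 0, while those of the other 7 genes span 0.

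The DNA upstream of Plvap is shown beside that of both VEGF receptors, since Plvap was the gene whose groups did not overlap and the receptors were genes whose groups did. RefSeq starts on the GRCr8 build, which is not the build of the count table, were given for 6 of the 10 genes. Each sequence is the 250 bases before the start, 5′ to 3′ in the direction of the gene. Capitals mark AGGAAG, a sequence that contains GGAA, the core bound by many ETS-family factors, and TATAAA, the letters of a TATA box. Whether either stretch of TATAAA serves as one was not tested. Both motifs were picked after the sequences had been seen and were searched on both strands.
Plvap (chr16:18231280-18231529, minus strand): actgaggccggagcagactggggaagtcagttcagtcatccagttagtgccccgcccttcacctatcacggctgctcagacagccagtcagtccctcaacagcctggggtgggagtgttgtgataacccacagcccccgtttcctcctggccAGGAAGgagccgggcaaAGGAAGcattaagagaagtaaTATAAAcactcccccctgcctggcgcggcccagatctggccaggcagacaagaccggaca
Flt1 (chr12:12333180-12333429, plus strand): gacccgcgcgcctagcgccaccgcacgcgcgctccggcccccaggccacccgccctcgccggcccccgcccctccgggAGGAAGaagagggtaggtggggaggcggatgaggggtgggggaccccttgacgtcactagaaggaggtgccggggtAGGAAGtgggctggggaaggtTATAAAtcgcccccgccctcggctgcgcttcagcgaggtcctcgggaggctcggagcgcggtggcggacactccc
Kdr (chr14:32571813-32572062, plus strand): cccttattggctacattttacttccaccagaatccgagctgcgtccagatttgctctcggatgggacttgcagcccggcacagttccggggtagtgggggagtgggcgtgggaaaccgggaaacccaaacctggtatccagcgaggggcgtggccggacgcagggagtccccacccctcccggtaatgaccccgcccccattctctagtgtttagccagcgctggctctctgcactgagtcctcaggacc
Upstream of Plvap, AGGAAG stood at 98 to 93 and at 81 to 76 bases before the start and TATAAA at 60 to 55 bases. In Flt1 the matches were at 172 to 167, at 96 to 91 and at 75 to 70 bases. The window of Kdr held neither of these motifs, though the shorter GGAA stood in it on both strands. Of 33469 rat promoter windows of the same length, 29.5% held AGGAAG, 12.9% held TATAAA and 3.49% held both. A match is a description of the letters and says nothing of binding.

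Between genes, levels were compared per length, as FPKM, in which counts are divided by row length and library total. Tjp1 had the highest mean over the 6 libraries, at 14.3 FPKM (range 13.3 to 14.9), followed by Vegfa at 11.7 (9.38 to 13.5) and Cdh5 at 5.68 (3.69 to 7.26). Tek followed at 4.77 FPKM (4.36 to 5.02), Vwf at 3.74 (3.25 to 4.21), Flt1 at 3.47 (3.06 to 3.70), Kdr at 3.31 (2.45 to 4.75) and Plvap at 2.23 (1.73 to 2.68). The higher gene of a pair of neighbours was higher in all 6 libraries for Tjp1 over Vegfa, Vegfa over Cdh5, Tek over Vwf and Kdr over Plvap. For these 4 pairs a two-sided exact sign-flip permutation test gave p = 0.03125, the smallest value that 6 libraries allow, and an adjusted p of 0.0547 over the 7 pairs. The order of Cdh5 and Tek (exact permutation p = 0.1875), of Vwf and Flt1 (exact permutation p = 0.125) and of Flt1 and Kdr (exact permutation p = 0.344) was not distinguishable from the spread between libraries.

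Relative to Cdh5, a gene made by endothelium alone in most tissues, the groups overlapped for each of the 5 endothelial genes compared. The log2 ratio of Plvap to Cdh5 was -1.94, -2.93 and -2.65 in CCI 1, 2 and 3 and -2.44, -1.88 and -2.20 in Sham 1, 2 and 3. The groups overlapped, since CCI 1, the library with the least Cdh5, had a high ratio. The mean ratio was 0.34 lower in CCI on the log2 scale (difference -0.34, exact permutation test, p = 0.4, adjusted p = 0.75 over 5 genes). Differences for Kdr, Flt1, Tek and Vwf were -0.04, 0.07, 0.22 and 0.25, with exact permutation p of 0.8, 0.6, 0.5 and 0.4. Groups of 3 cannot give an exact p below 0.1. Against the mean of Cdh5, Kdr, Flt1, Tek and Vwf, a denominator chosen after the data were seen, the difference of Plvap was -0.44 (exact permutation p = 0.2). Vwf, set against the mean of the other 4, was at 0.78, 0.59 and 0.67 in CCI 1, 2 and 3 and at 0.50, 0.58 and 0.40 in Sham 1, 2 and 3 on that log2 scale, without overlap (difference 0.19, exact permutation p = 0.1, the smallest possible, and adjusted p = 0.5 over the 5 genes).

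**Figure D3:**
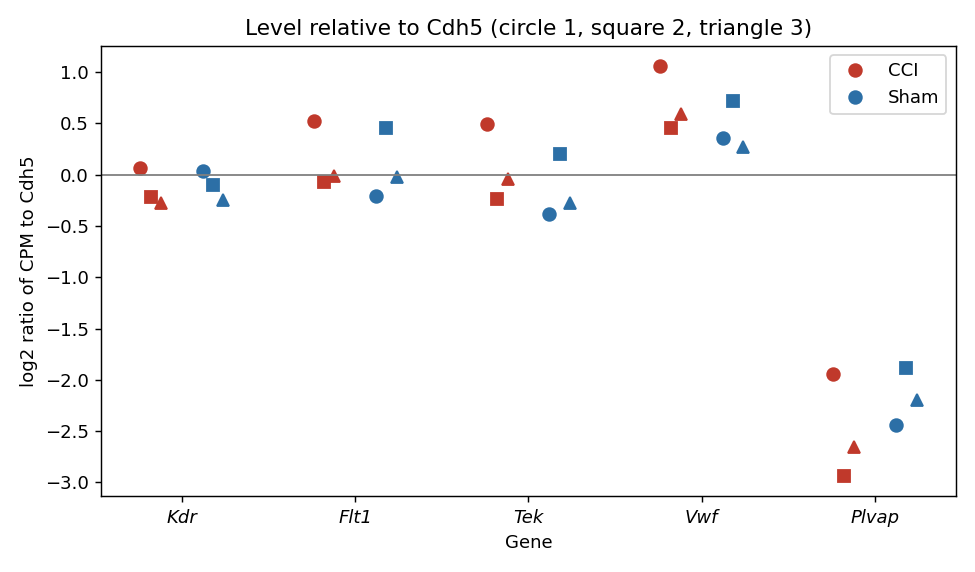
Log2 ratio of the CPM of 5 endothelial genes to that of Cdh5 (vertical axis, 0 for equal CPM) in each CCI library (red) and Sham library (blue). CCI 1 has the highest ratio in its group for all 5 genes, at 1.06 for Vwf and -1.94 for Plvap, and heights of different genes are not comparable because CPM does not allow for gene length.

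Much of the spread of these genes followed single libraries. CCI 1 was the lowest library for 4 of the 8 (Vegfa, Kdr, Flt1 and Cdh5), as for 20.3% of all tested rows, and Sham 1 the highest for 5 (Kdr, Cdh5, Vwf, Plvap and Tjp1), as for 15.4%. This was not particular to endothelial genes. CCI 1 was also lowest for 5 of 5 fibroblast and 7 of 9 Schwann cell genes, but for 0 of 11 macrophage and 0 of 7 satellite glial genes. Sham 1 was highest for 5 of 9 Schwann cell and 0 of 5 fibroblast genes. The mean log2 CPM of Cdh5, Kdr, Flt1, Tek, Vwf and Plvap was 4.06 in CCI 1, 4.57 in Sham 1 and 4.28 to 4.37 in the other 4 libraries. With both of those libraries left out, a choice made after the data were seen, the log2 fold change was 0.20 for Cdh5, 0.14 for Kdr, 0.24 for Vwf and -0.54 for Plvap. Vwf (unadjusted p = 0.0292, adjusted p = 0.4997 by edgeR) and Plvap (unadjusted p = 0.0241, adjusted p = 0.481 by edgeR) alone among the tested genes named at the outset then lay below the unadjusted limit of 0.05. Of 11916 other protein-coding genes, the 5 whose log2 CPM followed this mean most closely over the 6 libraries were Mmp14 (Pearson r = 0.992), Ca14 (0.992), Plac8 (0.992), Nr3c2 (0.989) and Fgfr2 (0.986). These r values were picked as the highest among many over 6 shared libraries and are a description only.

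**Figure D4:**
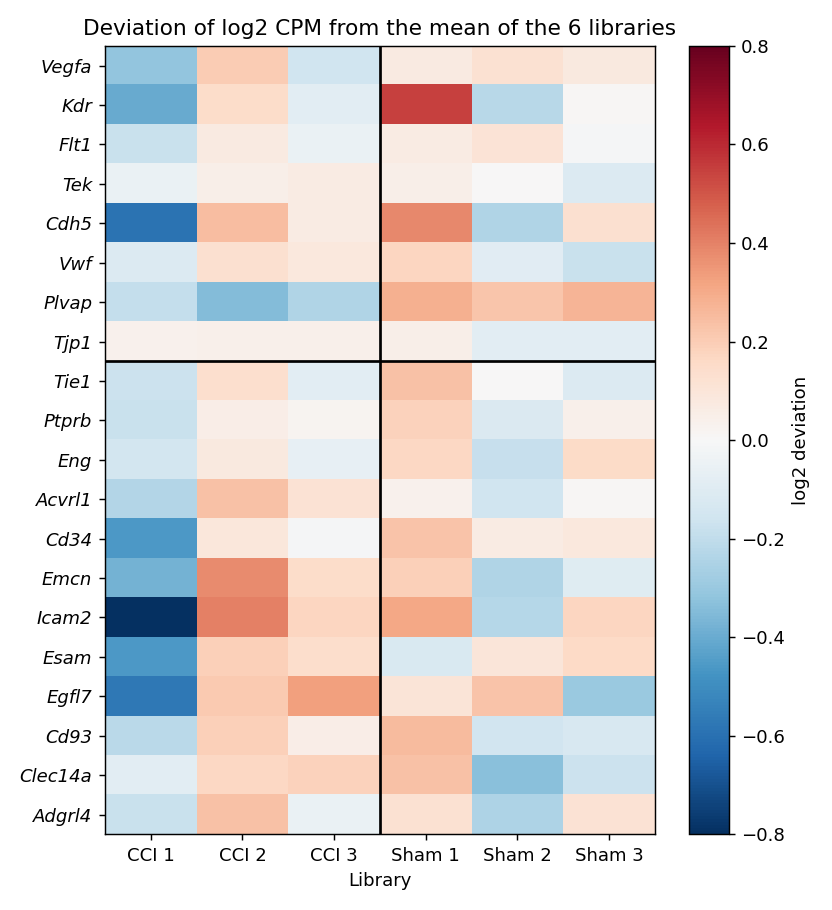
Colour gives the deviation of log2 CPM from the mean of the 6 libraries, for the 8 tested genes (upper block) and 12 further endothelial genes (lower block), with libraries in columns. Among the genes shown, the column of CCI 1 is mostly blue (low) and that of Sham 1 mostly red (high). Plvap is blue in all 3 CCI columns and red in all 3 Sham columns. The 12 further genes were chosen by hand from longer lists. Of all 19 tested endothelial identity genes, 9 were lowest in CCI 1 and 6 highest in Sham 1, against 20.3% and 15.4% of all tested rows. Of genes not shown, Fli1 and She were highest in CCI 1 and Mcam was lowest in Sham 1.

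The genes that accompany these in the vessel wall did not pass the limits either, where 3.83% of all tested rows did so. In lists as short as these, a count of 0 is near that share. Of 9 tested VEGF and angiopoietin ligands, 0 passed (median log2 fold change 0.14). The extremes of the 9 were Vegfc, a lymphatic growth factor, at 0.46 (SE 0.36), and Pgf, the placental growth factor that binds Flt1, at -0.50 (SE 0.18). Angpt4, Vegfd and Apln averaged under 0.5 FPKM and were not tested. Angpt4 held 79, 38 and 20 reads in CCI 1, 2 and 3 and 8, 2 and 15 in Sham 1, 2 and 3. Mean CPM in CCI and in Sham was 0.569 and 0.0994 for Angpt4, 1.46 and 0.768 for Vegfd and 0.890 and 1.02 for Apln. Pgf was at 3.46 to 4.68 CPM in CCI libraries and 4.85 to 6.07 CPM in Sham libraries, without overlap (adjusted p = 0.401 by edgeR). Of 12 receptors of VEGF, angiopoietin and related ligands, 0 passed (median -0.08), from S1pr1 at -0.30 to Flt4 at 0.29, and 8 of the 12 were lowest in CCI 1. Among 19 other endothelial identity genes, 0 passed (median 0.01), with Cd34, a surface sialomucin, at -0.23 and Rasip1, a regulator of vessel tubes, at 0.17, and 9 were lowest in CCI 1. Of 5 leukocyte adhesion molecules, 0 passed (median -0.05), Icam1 being at 0.26 and Jam2 at -0.42. Jam2 was at 16.9 CPM in CCI 2 and at 43.4 to 47.4 CPM in the other 5 libraries, and without CCI 2 its log2 fold change was -0.09.

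Junction and transport genes gave the same counts, again near the 3.83% of all tested rows that passed. Of 19 tight junction partners, 0 passed (median -0.01), the largest fold change being that of Cldn12, a claudin without a scaffold-binding motif, at 0.39 (SE 0.10, adjusted p = 0.250 by edgeR). Cldn12 was at 29.2 to 33.1 CPM in CCI libraries and 21.2 to 26.02 CPM in Sham libraries, which did not overlap, as in 8.63% of rows for the groups higher in CCI. The smallest was that of Cgn, the junction protein cingulin, at -0.24. Of 9 partners of VE-cadherin in adherens junctions, 0 passed (median 0.01), from Cdh2, N-cadherin, at -0.10 to Jup, plakoglobin, at 0.21. Of 16 barrier transporters and permeability genes, 0 passed (median 0.02). Abcg2, an efflux pump, was at 0.31, and Slc16a1, the lactate transporter MCT1, was at -0.27, with 65.3 to 75.9 CPM in CCI libraries and 78.5 to 93.5 CPM in Sham libraries. Of 14 hypoxia genes that accompany Vegfa, 0 passed (median 0.09), from Egln3, an oxygen-sensing hydroxylase, at -0.37 to Adm, the vasodilator adrenomedullin, at 0.40.

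**Figure D5:**
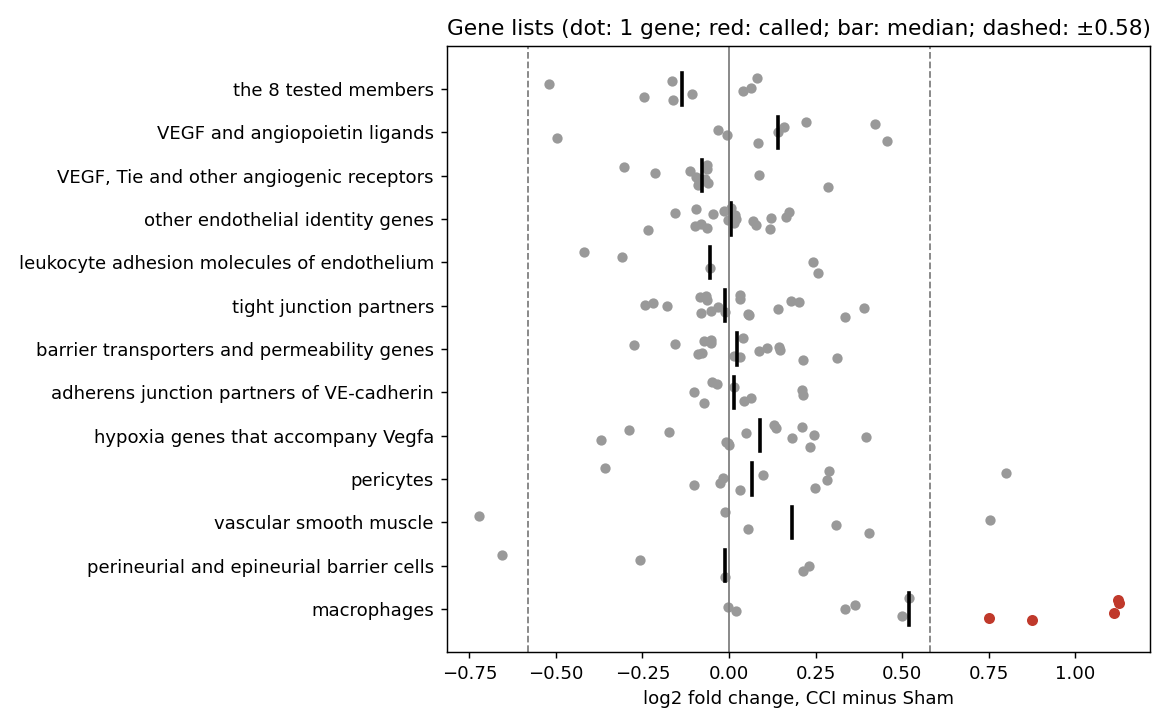
Log2 fold change of CCI over Sham (horizontal axis) of each tested gene in 13 lists, with medians as bars, the 0.58 limit dashed and genes that passed both limits in red. Red dots appear in the macrophage list alone, where 5 of 11 genes passed, and the medians of the vascular and junction lists lie between -0.14 and 0.18.

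Markers of the other cells of the vessel and ganglion were counted in the same way, against the same 3.83% of all tested rows. None passed among 10 pericyte genes (median 0.07), 6 vascular smooth muscle genes (median 0.18), 5 lymphatic endothelial genes (median 0.16) and 5 perineurial and epineurial genes (median -0.01). At an unadjusted p under 0.05 by edgeR with any fold, 2 of the 6 smooth muscle and 2 of the 5 perineurial and epineurial genes were higher. In these 4 lists 0 were lower at that level. Of all 26663 tested rows, 2866 (10.7%) reached it in either direction, of which 1382 (5.18% of all tested rows) were lower in CCI. The 8 smooth muscle genes with a row summed to 215 to 240 CPM in CCI libraries and 184 to 214 CPM in Sham libraries. In the perineurial and epineurial list the fold changes ran from Msln, the surface protein mesothelin, at -0.66 (SE 0.999) to Itgb4, an integrin of perineurial and Schwann cells, at 0.23 (SE 0.06). Msln was at 0.148, 3.95 and 0.684 CPM in CCI 1, 2 and 3 and at 2.01, 3.48 and 2.05 CPM in Sham 1, 2 and 3, and without CCI 2 its log2 fold change was -2.59 and past both limits. Itgb4 was at 643 to 714 CPM in CCI libraries and 557 to 610 CPM in Sham libraries, without overlap. Among 15 neuronal genes none passed the limits (median -0.20), but Nefl, the light neurofilament chain, had an adjusted p of 0.0457 in edgeR, with a log2 fold change of -0.57 (SE 0.06) short of the fold limit, which it passed without CCI 2 (-0.61) or Sham 1 (-0.59). Of these 15, 4 were lower and 2 higher at an unadjusted p under 0.05 by edgeR. Of all tested rows, 5.18% were lower at that level and 10.7% reached it in either direction. None passed among 7 satellite glial genes (median -0.10), 9 Schwann cell genes (median -0.14), 5 fibroblast genes (median -0.06), 7 erythrocyte genes (median -0.45) and 3 adipocyte genes (median -0.26). Of 11 macrophage genes, 5 passed as higher in CCI (C1qa, C1qb, Cx3cr1, Cd68 and Csf1r; median of the list 0.52). No listed marker outside the adipocyte list was at 0 in all libraries. The lists share Flt4, Esam, Slc2a1 and Cldn1 in pairs.

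For genes that the table annotates with vascular terms, the counts past the limits stand against 2.57% of tested rows higher and 1.26% lower. In angiogenesis, 4 of 132 tested genes rose and 1 fell, which is near those shares. At an unadjusted p under 0.05 by edgeR with any fold, 19 of the 132 were higher and 5 lower. Of all 26663 tested rows, 2866 (10.7%) reached that level in either direction, of which 1382 (5.18% of all tested rows) were lower in CCI. The groups did not overlap for 22 of the 132 as higher in CCI and for 8 as lower, against 8.63% and 8.7% of all tested rows. Jun, a transcription factor of the injury response, was at 167, 133 and 119 CPM in CCI 1, 2 and 3 and at 65.9, 67.3 and 68.1 CPM in Sham 1, 2 and 3, a log2 fold change of 1.06 (SE 0.12, adjusted p = 0.0712 by edgeR). Cyp1b1, a monooxygenase, was at 0.63 and Pdcl3, a chaperone of VEGFR2, was at 0.59. The 1 that fell past the limits was Fgf1, a fibroblast growth factor, at -0.70 (SE 0.16), with 167 to 223 CPM in CCI libraries and 281 to 396 CPM in Sham libraries. Fgf1 was at -0.55, short of the fold limit, without Sham 2. Jun passed in each fit that left out 1 library. Cyp1b1 was short of a limit without CCI 1, CCI 2, Sham 2 or Sham 3 (0.40, 0.64, 0.56 and 0.60, with unadjusted p of 0.0534 to 0.0772 by edgeR). Pdcl3 was short of the fold limit without CCI 1, Sham 1 or Sham 3 (0.51, 0.55 and 0.56).

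In VEGF receptor signalling, 1 of 16 tested genes rose past the limits, as did 2.57% of all tested rows. It was Ccl2, a chemokine that draws monocytes. Ccl2 was at 24.6, 22.7 and 20.6 CPM in CCI 1, 2 and 3 and at 11.1, 9.07 and 7.68 CPM in Sham 1, 2 and 3, a log2 fold change of 1.29 (SE 0.15, adjusted p = 0.0712 by edgeR). In the bicellular tight junction term, 3 of 64 genes rose, against the same 2.57% of all tested rows. These were the epithelial claudin genes Cldn4 and Cldn22 and Sh3bp1, a GTPase-activating protein. Cldn4 was at 3.27, 1.48 and 0.960 CPM in the CCI libraries and at 0.0456, 0.202 and 0 CPM in the Sham libraries, a gene near its detection limit in Sham rats. Cldn22 was at 1.38 to 2.20 CPM in CCI libraries and 0.787 to 1.07 CPM in Sham libraries (log2 fold change 0.99, SE 0.26). Sh3bp1, at 0.60, was also the 1 of 56 adherens junction genes that rose, and was not past the limits without CCI 1 (0.53) or Sham 2 (0.46). In the establishment of the endothelial barrier, 0 of 13 genes passed, and in vasculogenesis, 0 of 45.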

How the data were processed

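Ribosomal RNA-depleted RNA of DRG from 3 CCI and 3 Sham rats was sequenced. Per the labels, the authors used HISAT2 2.0 and StringTie 1.3.0. The counts the authors deposited are whole reads per row, without normalization. The FPKM values deposited beside them follow from count, library total and row length (95.9% of values with at least 20 reads agree within 1%), and a count of 0 is listed there as 0.0001. The methods call the genome V101. The assembly's exact name is not given in the sources used here. Library totals (75423546 to 87615743) set the depth, at which 3 counts are 0.0342 to 0.0398 CPM of these unscaled totals. The other CPM use the total of the tested rows times the TMM factor.

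Samples were grouped by title. Where several rows carried a symbol, protein-coding rows came first, then the largest count sum. The 26663 of 43350 rows whose FPKM averaged 0.5 or more were tested with edgeR 4.0.16 (TMM factors, quasi-likelihood), in R 4.3.3. A trial of this fit on simulated data planted larger changes than those of the tested genes named at the outset. It does not show how often changes of their size would be found. The 10 genes, the lists and the tests were chosen with earlier results of these data known. Related lists give their genes past the limits (at most the 4 largest, with the remaining ones also named where 5 or fewer passed), or else the largest and smallest fold change. The values of 1 such gene are not reported here. For marker lists of other cells counts and medians are given, and named genes there were picked after their values were seen. The ratio was planned against Pecam1 and Cdh5 and used Cdh5 alone, since no row carries Pecam1. A ratio of Cldn5 was not computed because it had 0 reads. p-values measure the spread between these 6 samples. Alternatives were RLE factors, DESeq2 1.42.0, other filters, limma 3.58.1 on log2(FPKM + 0.1) and log2(FPKM + 1), protein-coding rows, a replicate block and leaving out each library.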

Additional observations from a re-analysis of the deposited data

How the results depend on the processing

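The counts of the 8 tested genes past the limits, 0 higher and 0 lower, held under all alternatives with the same limits. Dropping the limit on fold, an alternative added after seeing the data, made it 1 lower (Plvap), and DESeq2 gave 1 with an adjusted p under 0.05 (Plvap) where edgeR gave 0. Over the table, 686 rows passed as higher and 336 as lower. With limma on log2(FPKM + 1) these were 410 and 161, and with protein-coding rows alone 353 and 115. The first compresses small values and the second tests fewer rows. With the replicate block they were 617 and 318 and no member passed (Plvap at -0.52, unadjusted p = 0.0171 by edgeR). Deviations of same-numbered CCI and Sham libraries had r of -0.05 to -0.01, other pairs -0.02 to 0.04, and no such pairing was used. Leaving out 1 library each gave log2 fold changes of -0.34 to 0.047 for Cdh5, -0.40 to 0.0068 for Kdr, -0.0034 to 0.075 for Tek, -0.0061 to 0.17 for Vwf, -0.55 to -0.48 for Plvap, -0.32 to -0.06 for Vegfa, -0.17 to -0.05 for Flt1 and 0.06 to 0.12 for Tjp1. The sign turned without CCI 1 for Cdh5, without Sham 1 for Kdr and without Sham 3 for Tek and Vwf. Without CCI 1 and Sham 1, Cdh5 was at 0.20, Kdr at 0.14, Mmp14 at 0.042, Ca14 at 0.049, Plac8 at 0.038 and Fgfr2 at 0.15, against values below 0 with all libraries. The cause of these reversals was not tested. Cldn4 at 3.58 without those 2 libraries had an unadjusted p of 0.0527 by edgeR. The ratio to Pecam1 alone was not run. Plvap, at 307 to 518 reads, is the shallowest of the tested genes.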
